A study of Mus musculus with 9 samples.

Results

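The foam-cell and fatty acid binding genes described here are 7 of the 18303 genes listed in a table of estimated RNA-seq counts: Gpnmb, Spp1, Lgals3, Fabp4, Fabp5, Plin2 and Soat1. They were picked by symbol, and all 7 were found. RNA was sequenced from cells sorted as CD45+CD11b+F4/80+ out of dissociated wounded skin. The mice were wild-type C57BL/6J, the sort also excluded dead cells, and the cells went to RNA extraction without treatment. One group was taken 4 days after injury (4 libraries) and the other 14 days after injury (5 libraries), and the comparison asks how macrophages of the early and late phase of wound repair differ. Replicates are numbered here in the order of deposit. Whether each library is another animal, or a pool, is not given, so the p-values speak of spread among samples that could be technical.

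Macrophages that take up more lipid than they export store it in droplets and become foam cells. Inside the cell, fatty acid binding proteins carry fatty acids between membranes, droplets and the nucleus, sterol O-acyltransferase 1 (Soat1) joins cholesterol to a fatty acid for storage, and perilipin 2 (Plin2) coats the droplet. Osteopontin (Spp1), galectin-3 (Lgals3) and the membrane glycoprotein Gpnmb are known from lipid-laden and tissue-repair macrophages, where the first of these is secreted and binds integrins and CD44.

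Total counts ran from 17982633 to 57809918 per library, and between 14537 and 16233 genes held a count. The counts of day 14 replicate 5 end partway along chromosome 9. Beyond that place or without a known position lie 853 genes with 50 or more counts in all 8 other libraries, and 808 of them were at 0 here. No member lies there, and such genes were left out of the test. The 9 macrophage and gate markers summed to 21353 to 24749 CPM at day 4 and 24136 to 26881 CPM at day 14. CPM are counts normalized to library size with TMM scaling. Lyz2, not a sort marker, was the largest part, at 10168 to 11296 CPM at day 4 and 10108 to 12387 CPM at day 14. The sort marker genes Ptprc, Itgam and Emr1 were at 1044 to 1984 CPM at day 4 and 1184 to 1617 CPM at day 14. Of the 9, 3 were called higher at day 14, among them Ptprc and Emr1, and 3 lower, among them Itgam. Fibroblast markers were high as well, summing to 10217 to 20474 CPM at day 4 and 5673 to 9243 CPM at day 14, and 4 of 9 were lower at day 14.

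The promoters of Spp1 and Plin2, which fell, and of Gpnmb, which did not pass the test, are printed because they show which of the motifs searched each window holds. The RefSeq table (GRCm38.p6) held promoters of 5 members; Fabp4 and Fabp5 are the other two. Each is written 5′ to 3′ on the gene's own strand, from 250 bases before the annotated start to 20 bases after it. Capitals mark a match to CACGTG, the E-box that MITF and TFE factors can bind, or to TGACTCA, the AP-1 element.
Spp1, chr5:104434861-104435130, plus strand: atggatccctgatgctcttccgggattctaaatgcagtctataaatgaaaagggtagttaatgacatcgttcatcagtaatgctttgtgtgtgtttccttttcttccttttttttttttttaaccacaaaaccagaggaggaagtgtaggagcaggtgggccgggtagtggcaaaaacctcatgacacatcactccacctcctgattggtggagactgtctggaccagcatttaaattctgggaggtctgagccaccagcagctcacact
Plin2, chr4:86670040-86670309, minus strand: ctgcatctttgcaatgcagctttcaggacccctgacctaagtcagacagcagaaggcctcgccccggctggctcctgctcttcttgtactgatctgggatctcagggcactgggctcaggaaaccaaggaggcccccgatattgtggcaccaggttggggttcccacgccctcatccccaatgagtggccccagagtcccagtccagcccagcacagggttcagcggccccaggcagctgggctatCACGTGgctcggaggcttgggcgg
Gpnmb, chr6:49036268-49036537, plus strand: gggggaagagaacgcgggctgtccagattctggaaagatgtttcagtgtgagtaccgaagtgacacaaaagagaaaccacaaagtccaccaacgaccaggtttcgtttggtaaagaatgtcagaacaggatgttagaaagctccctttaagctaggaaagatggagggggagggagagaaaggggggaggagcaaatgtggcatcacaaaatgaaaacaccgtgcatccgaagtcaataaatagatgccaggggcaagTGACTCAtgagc
The Plin2 sequence held CACGTG across the start used for its window, from base -4 to base 2, and Gpnmb held TGACTCA from base 9 to base 15. That Plin2 start lies inside the gene's span (86626910 to 86670217), downstream of its first base, so by this span the CACGTG is within the gene. The printed starts of Spp1 and Gpnmb are the first base of their spans. Both strands were searched. Of 32851 windows of the same length, 6.57% held CACGTG and 4.77% held TGACTCA. The PPAR element, searched as AGGTCA repeated after 1 base of any kind, was in 0.0335% of windows and in no member's. The hypoxia core was searched as ACGTG only, and GCGTG was not searched. ACGTG lies within every CACGTG and was in 17.9% of windows. Of the members it matched Plin2 alone. Neither Soat1, Lgals3 nor either of the 2 Spp1 windows held any of these motifs as searched.

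Of the 7 genes, Spp1, Fabp5 and Plin2 fell between day 4 and day 14, and Gpnmb, Lgals3, Fabp4 and Soat1 did not pass the test. These 3 of 7 stand beside a background of 31.1% of 12225 genes called in either direction, and 15.2% called lower (edgeR's quasi-likelihood test, Benjamini-Hochberg adjusted p under 0.05). The libraries of the 2 days did not overlap for the same 3 genes, as for 25.3% of all genes tested. The median log2 fold change over all genes tested was 0.01. The fibroblast marker sum was lower at day 14 as well, and its part in these results was not tested. In bulk RNA, fewer cells of a type and less RNA per cell cannot be told apart.

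**Figure D1:**
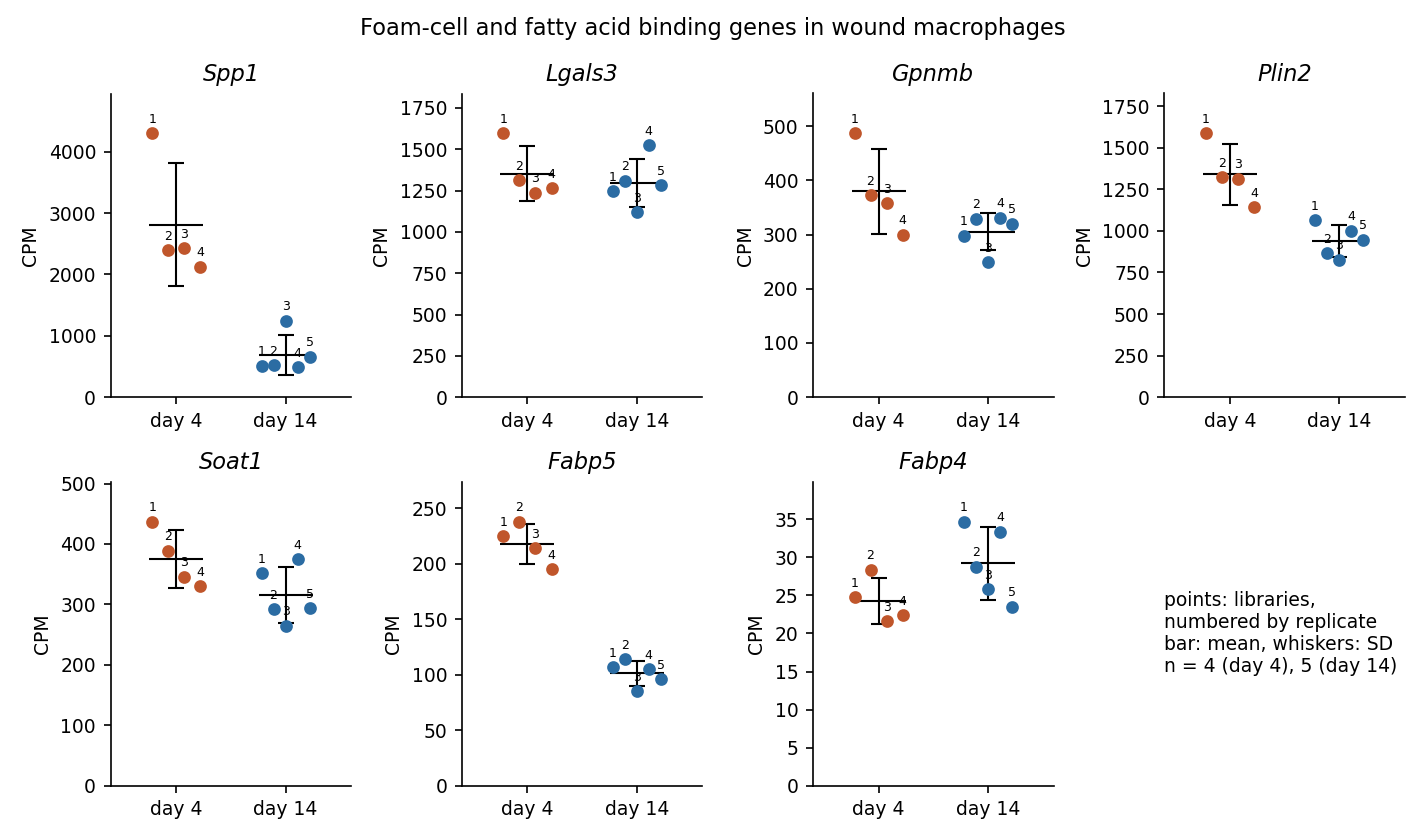
TMM-scaled CPM of each gene in each library, with axes from 0. Points are libraries numbered by replicate, the horizontal bar is the mean and the whiskers are the SD (n = 4 at day 4 and 5 at day 14). Every day 4 library lies above every day 14 library for Spp1, Plin2 and Fabp5, and the days overlap for the other four.

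Spp1 (gene ID 20750, chromosome 5, 104435111 to 104441053, GRCm38), the gene of osteopontin, showed the largest difference of the 7. At day 4 it was at 4302, 2390, 2425 and 2125 CPM in replicates 1 to 4. At day 14 it was at 510, 518, 1245, 487 and 661 CPM in replicates 1 to 5. Replicate 1 was far above the others at day 4 and replicate 3 at day 14, yet the lowest day 4 library remained above the highest day 14 library. The means were 2811 ± 1003 CPM (SD, n = 4) and 684 ± 321 CPM (SD, n = 5), 4.11-fold lower at day 14. The log2 fold change was -2.04 ± 0.31 (SE; adjusted p = 0.000675, edgeR quasi-likelihood), and lower levels were seen in 5 of 5 day 14 libraries. Among all genes tested, the size of this change lay at percentile 97.8, and 106 genes were called lower by more.

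Ranked within each library among the genes that lie before the end of day 14 replicate 5, Spp1 went from place 13 to 35 at day 4 to place 81 to 346 at day 14. The ratio of Spp1 to Lgals3 counts was between 1.68 and 2.69 in the day 4 libraries. At day 14 it was between 0.319 and 0.516 in 4 libraries and 1.11 in replicate 3. The deposited Spp1 counts were not whole numbers in 6 of 9 libraries.

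The libraries with the most Spp1 of their day also held the most neutrophil marker RNA. The neutrophil list is 1 of 14 marker lists and is given because of its values. Other lists were highest in 1 of these libraries too. Examples are the macrophage and gate list in day 4 replicate 1 (24749 CPM) and the endothelial list in day 14 replicate 3 (89.2 CPM). The summed CPM of the 6 neutrophil markers measured in all libraries was 1794 in day 4 replicate 1 against 655, 737 and 758 in replicates 2, 3 and 4. At day 14 it was 1823 in replicate 3 against 383, 258, 380 and 842 in replicates 1, 2, 4 and 5. S100a9, a calcium-binding protein abundant in neutrophils, was at 972 CPM in day 4 replicate 1 and at 881 CPM in day 14 replicate 3, the highest of each day. Retnlg, another of the 6, was highest in day 4 replicate 1 (50.6 CPM) but did not follow at day 14. Replicate 3, at 35.1 CPM, lay below replicates 1 and 2 there (43.8 and 35.4 CPM). Between the days, edgeR called 0 of 7 neutrophil markers tested (1 at an unadjusted p under 0.05), and DESeq2 and limma-voom called 1 each. Without both libraries, an alternative chosen after the data were seen, Spp1 was at 2314 ± 164 CPM (SD, n = 3) and 544 ± 78.9 CPM (SD, n = 4), a 4.25-fold difference. These libraries were left out for their own Spp1 and neutrophil values, which narrows the spread, so no test is given. The part of neutrophil RNA in the Spp1 values was not tested.

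**Figure D2:**
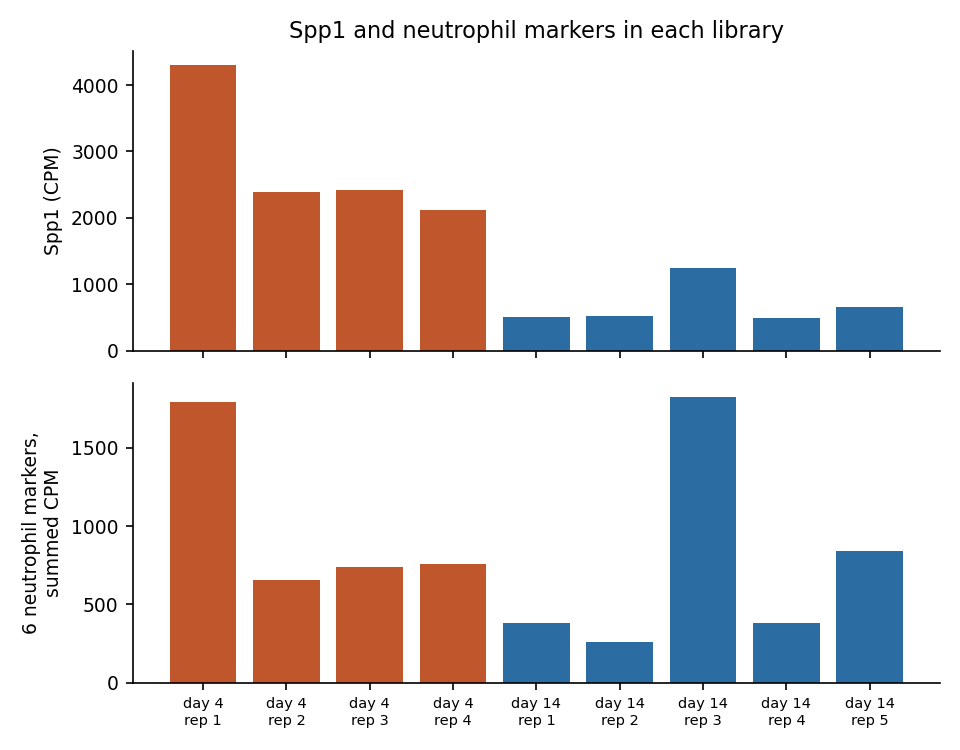
Spp1 CPM (top) and the summed CPM of 6 neutrophil markers (bottom) in each of the 9 libraries, as bars from 0. Day 4 replicate 1 (4302 and 1794 CPM) and day 14 replicate 3 (1245 and 1823 CPM) are the highest of their day in both panels.

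Osteopontin receptors were mostly lower at day 14. Of 9 tested, 6 fell and 1 rose, with a median log2 fold change of -0.59 against 0.01 over all genes. Itgb3, the integrin chain that forms the classical osteopontin receptor with Itgav, fell from 30.1 ± 5.68 to 15.9 ± 1.92 CPM, a log2 fold change of -0.92 ± 0.13 (adjusted p = 0.000288). Itga9, another osteopontin-binding chain, was taken from the 8 other libraries because it lies beyond the place where day 14 replicate 5 ends, and fell from 96.1 ± 1.41 to 67.3 ± 5.84 CPM (n = 4 and 4, adjusted p = 0.00106). Itga4 rose from 329 ± 38.6 to 537 ± 84.7 CPM (adjusted p = 0.0013). The hyaluronan and osteopontin receptor gene Cd44, the most abundant of the list, was at 1669 ± 453 and 1573 ± 256 CPM (adjusted p = 0.731). In the 8 other libraries, 28.6% of 13287 genes were called.

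Lgals3 (gene ID 16854, chromosome 14, 47373860 to 47386167) encodes galectin-3, a lectin that binds galactose-containing sugars and is also known as the macrophage antigen Mac-2. Its level was at 1598, 1312, 1238 and 1263 CPM at day 4. At day 14 it was at 1247, 1309, 1119, 1525 and 1281 CPM. The days overlapped, and the highest and the second highest library belonged to different days. The means were 1353 ± 166 and 1296 ± 147 CPM, and the log2 fold change of -0.06 had a 95% interval from -0.30 to 0.18 (adjusted p = 0.702). Without day 4 replicate 1 its sign turned, to 0.02 (adjusted p = 0.891). In 8 of 9 libraries its deposited count was not a whole number.

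Of 4 other galectins tested, Lgals1 and Lgals9 fell. With Lgals3bp, a binding partner that was put in the same list, 3 of 5 genes fell, 0 rose and 2 did not pass, with a median log2 fold change of -0.66. Lgals1, a galectin made by many cell types, fell from 476 ± 27.1 to 299 ± 18.7 CPM, a log2 fold change of -0.67 ± 0.08 (adjusted p = 8.63e-05). Lgals9 fell from 181 ± 14.4 to 114 ± 2.04 CPM (adjusted p = 5.06e-05). Lgals3bp, which encodes a secreted glycoprotein that binds galectin-3, fell from 553 ± 45.5 to 252 ± 16.6 CPM, a log2 fold change of -1.14 ± 0.09 (adjusted p = 2.91e-06). Lgals7, a galectin of keratinocytes that the low-count filter removed, was at 0.0645 ± 0.0899 and 0.528 ± 0.252 CPM without overlap. It entered the edgeR test and was called higher when any 1 of the 4 day 4 libraries was left out (adjusted p from 0.00137 to 0.0280). No day 4 library exceeded 0.197 CPM, so it passed the filter there through day 14 libraries alone, and those calls are no support for a rise. It was also called without the filter (adjusted p = 0.00869). In the 6 libraries with the fewest counts it entered and did not pass (log2 fold change 2.22, adjusted p = 0.0765). Whether the changes in this list differ from that of Lgals3 was not tested.

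Gpnmb (gene ID 93695, chromosome 6, 49036518 to 49058182) encodes a transmembrane glycoprotein of lysosomes and the cell surface. It was at 487, 373, 358 and 300 CPM at day 4 and at 298, 329, 249, 331 and 320 CPM at day 14. Day 4 replicate 1 stood above the rest, while day 4 replicate 4 lay within the range of day 14. The log2 fold change was -0.31 ± 0.13 with a 95% interval from -0.61 to -0.02, and it did not pass (adjusted p = 0.0959, edgeR quasi-likelihood). It passed without day 4 replicate 4 (-0.43, adjusted p = 0.0273), but that library was the lowest of its day, so leaving it out was bound to enlarge the difference. Without day 4 replicate 1 and day 14 replicate 3 together, an alternative chosen after the data were seen, the log2 fold change was -0.11. These were the highest Gpnmb library of day 4 and the lowest of day 14. Leaving them out was bound to shrink the difference, so no test is given. Melanocytes also make Gpnmb. Their 6 markers summed to 0.342 to 0.866 CPM at day 4 and 1.5 to 3.03 CPM at day 14, and Mlana was at 0 in all day 4 libraries. Of the 2 markers tested, Sox10, at no more than 1.56 CPM in any library, was called higher at day 14. No day 4 library exceeded 0.0901 CPM, so Sox10 passed the low-count filter through day 14 libraries alone. That call is no support for a rise. The part of melanocyte RNA in the Gpnmb values was not tested.

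MITF and its relatives are transcription factors of lysosome and pigment genes that are known to drive Gpnmb. Of 6 genes in the list of these factors and of relatives and ligands of Gpnmb, 1 rose and 1 fell, with a median log2 fold change of -0.07. Mitf itself was at 117 ± 9.26 and 117 ± 12.8 CPM (adjusted p = 0.956). Tfec, its macrophage-restricted relative, fell from 49.2 ± 5.15 to 40.7 ± 1.13 CPM (adjusted p = 0.0243). The proteoglycan gene Sdc4, whose product binds Gpnmb, was also the most abundant of the list and rose from 414 ± 71.0 to 549 ± 71.6 CPM (adjusted p = 0.0293). Tfe3, on the X chromosome and so taken from 8 libraries, was at 103 ± 11.9 and 88.5 ± 8.66 CPM (adjusted p = 0.152), and passed without day 14 replicate 3 (adjusted p = 0.0364). That library held the highest Tfe3 of day 14 (100 CPM), so leaving it out was bound to enlarge the difference. In the 3 deepest libraries the log2 fold change of Tfe3 was -0.37. The call of Tfec was lost without day 4 replicates 1, 3 or 4 or day 14 replicate 2 (adjusted p from 0.05 to 0.0603), and that of Sdc4 without day 4 replicates 2, 3 or 4 or day 14 replicates 1 or 4 (adjusted p from 0.059 to 0.0906).

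Plin2 (gene ID 11520, chromosome 4, 86626910 to 86670217) encodes perilipin 2, the droplet coat of cells other than fat cells. Its level at day 4 was 1588, 1322, 1314 and 1143 CPM. At day 14 it was 1063, 867, 827, 1001 and 948 CPM. Each day 14 library lay below each day 4 library, and the gap between the nearest pair, 1143 and 1063 CPM, was small beside the spread. The means of 1342 ± 184 and 941 ± 96.4 CPM differed 1.43-fold (log2 fold change -0.51 ± 0.11, adjusted p = 0.00448). Within the 6 libraries with the fewest counts (17982633 to 27381291) the log2 fold change was -0.69 ± 0.13 (adjusted p = 0.00549). In the 3 deeper ones, 2 of day 4 and 1 of day 14, it was -0.22 ± 0.12 and did not pass (adjusted p = 0.161).

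Soat1 (gene ID 20652, chromosome 1, 156428108 to 156474328) makes the cholesteryl esters that fill the droplets of foam cells. It was at 437, 389, 346 and 330 CPM at day 4 and at 352, 292, 265, 375 and 294 CPM at day 14. Libraries of the 2 days were interleaved. The log2 fold change was -0.25 ± 0.12, with a 95% interval from -0.51 to 0.01 (adjusted p = 0.134). It was -0.45 ± 0.14 in the 6 shallower libraries (adjusted p = 0.0585) and 0.04 ± 0.10 in the 3 deeper ones (adjusted p = 0.751). Soat2, the isoenzyme of gut and liver, was at 5.49 ± 0.840 and 2.45 ± 2.64 CPM (adjusted p = 0.146). Soat2 is named here after its values were seen.

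**Figure D3:**
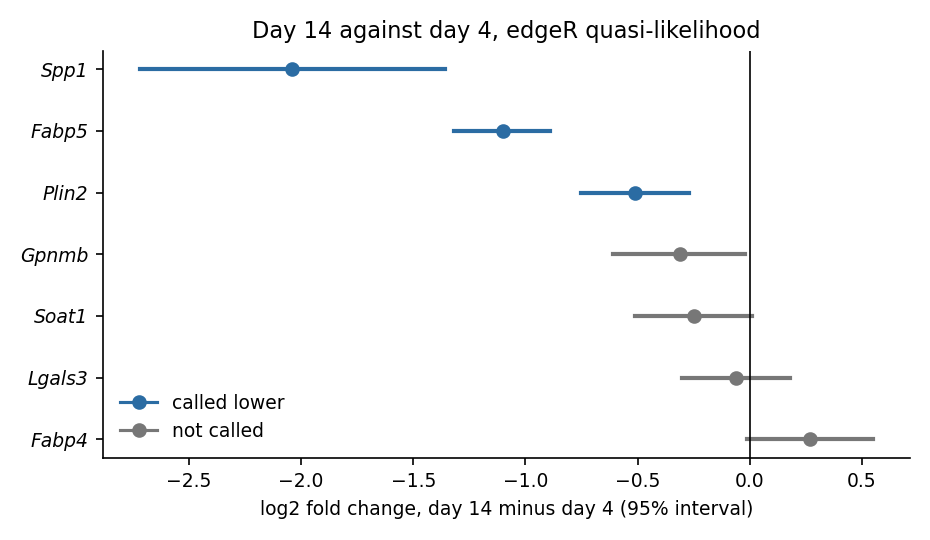
Log2 fold change of each gene, day 14 minus day 4, with its 95% interval from edgeR's quasi-likelihood fit over all genes (n = 4 and 5 libraries). Spp1, Fabp5 and Plin2 were called lower, and of the 4 genes that were not called, Gpnmb has an interval that ends below 0 (-0.61 to -0.02).

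Genes of the lipid droplet other than Plin2 went both ways. Of 21 coat, triglyceride synthesis and lipolysis genes tested, 3 rose and 6 fell, with a median log2 fold change of -0.14. Agpat9 (now Gpat3), an acyltransferase of triglyceride synthesis, fell from 42.7 ± 11.9 to 12.6 ± 4.48 CPM, a log2 fold change of -1.77 ± 0.24 (adjusted p = 0.000275). Hilpda, a hypoxia-induced droplet protein that restrains lipolysis and the most abundant of the list at day 4 but not at day 14, fell from 350 ± 74.4 to 159 ± 21.9 CPM (adjusted p = 9.29e-05). Among the genes that rose, Mgll, the lipase of monoglycerides, went from 3.20 ± 0.309 to 7.68 ± 1.91 CPM (adjusted p = 0.000511). Lpin1, a phosphatidate phosphatase, went from 47.0 ± 7.87 to 67.2 ± 11.1 CPM (adjusted p = 0.0131), and the acyl-CoA synthetase gene Acsl3 from 30.7 ± 8.39 to 46.8 ± 5.01 CPM (adjusted p = 0.0123). The log2 fold change of Acsl3 was 0.62 over all libraries, and in the 6 shallower ones it was 0.25 and did not pass (adjusted p = 0.220). The ratio of Plin2 to Plin3, the gene of another droplet coat, ran from 17.1 to 29.4 at day 4 and from 15.8 to 20.5 at day 14. Plin1, the coat of fat cells, did not exceed 0.260 CPM in any library.

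Cholesterol and lipid uptake genes were split as well. Of 18 genes of the cholesterol ester cycle, uptake and export, 2 rose and 5 fell, with a median log2 fold change of -0.26. Lpl, the lipase that frees fatty acids from lipoproteins, rose from 589 ± 81.0 to 1424 ± 224 CPM, a log2 fold change of 1.27 ± 0.14 (adjusted p = 3.48e-05). The scavenger receptor gene Cd36, which takes up fatty acids and oxidised lipoproteins, rose from 852 ± 120 to 1322 ± 430 CPM (adjusted p = 0.036). The scavenger receptor gene Msr1 fell from 414 ± 29.6 to 258 ± 16.8 CPM (adjusted p = 9.5e-05), the lipoprotein receptor gene Lrp1 from 2155 ± 221 to 1174 ± 185 CPM (adjusted p = 0.000252) and Nr1h3, the oxysterol receptor LXR alpha, from 28.8 ± 2.23 to 15.5 ± 1.48 CPM (adjusted p = 3.82e-05). Scarb1, a receptor of high-density lipoprotein, and Npc2, which moves cholesterol out of lysosomes, fell by 0.40 and 0.22 on the log2 scale (adjusted p = 0.0275 and 0.0459). Apoe, the apolipoprotein gene and the most abundant of the list, was at 8587 ± 573 and 8041 ± 611 CPM (adjusted p = 0.449).

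Of these calls, 3 were lost when 1 library was left out. Cd36 lost its call without day 4 replicates 1, 3 or 4 or day 14 replicates 1, 2 or 4 (adjusted p from 0.0646 to 0.102). Scarb1 lost it without day 4 replicates 3 or 4 or day 14 replicates 1, 2 or 4 (adjusted p from 0.0633 to 0.094). Npc2 lost it in 7 of the 9 such fits, those without day 4 replicates 1, 2 or 3 or day 14 replicates 1, 2, 3 or 5 (adjusted p from 0.0602 to 0.0947), and also under upper-quartile scaling (adjusted p = 0.0571) and without a low-count filter (adjusted p = 0.0769).

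Fabp5 (gene ID 16592, chromosome 3, 10012585 to 10016610), the epidermal fatty acid binding protein that macrophages also make, fell by a factor of 2.15. It was at 225, 238, 214 and 195 CPM at day 4 and at 107, 114, 85.1, 105 and 95.7 CPM at day 14. The lowest day 4 library, at 195 CPM, was above the highest day 14 library, at 114 CPM. With means of 218 ± 18.1 and 101 ± 11.1 CPM, the log2 fold change was -1.10 ± 0.10 (adjusted p = 8.51e-06, edgeR quasi-likelihood), the smallest adjusted p of the 7 genes. Its coefficient of variation was 8.33% at day 4 and 11% at day 14. The change lay at percentile 91.4 of all genes tested by size. It was -1.23 ± 0.12 in the shallower and -0.95 ± 0.10 in the deeper libraries and passed in both. Its deposited counts were not whole numbers in any of the 9 libraries, as for Spp1 and Lgals3 in some. Fabp5 has processed pseudogenes, and whether reads of near-identical copies enter its count was not tested. Keratinocytes are known for Fabp5, and their 10 listed markers summed to 0.910 to 6.18 CPM at day 4 and 5.87 to 13.5 CPM at day 14, and 5 of 6 tested were called higher at day 14. Of these, Krt17 and Trp63 did not exceed 0.236 and 0.275 CPM at day 4. They passed the low-count filter through day 14 libraries alone, and their calls are no support for a rise. The part of keratinocyte RNA in the Fabp5 values was not tested.

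Fabp4 (gene ID 11770, chromosome 3, 10204342 to 10208616), the adipocyte fatty acid binding protein, is a PPAR gamma target in fat cells and macrophages and lies near Fabp5 on the same chromosome. It was the least abundant of the 7 genes. Its level was 24.8, 28.4, 21.6 and 22.4 CPM at day 4 and 34.7, 28.8, 25.8, 33.4 and 23.5 CPM at day 14. At day 14, replicates 1, 2 and 4 lay above all of day 4 and the others among them. The log2 fold change was 0.27 ± 0.13, with a 95% interval from -0.01 to 0.55 (adjusted p = 0.13). In the 6 shallower libraries it was 0.05 ± 0.15 (adjusted p = 0.86). In the 3 deeper ones it was 0.65 ± 0.13 and passed (adjusted p = 0.00236), with day 14 replicate 1, the library with the highest Fabp4, as the only day 14 library. Adipocyte markers were near 0: the 7 of them summed to 0.857 to 2.99 CPM at day 4 and 0.221 to 0.899 CPM at day 14, and Adipoq did not exceed 0.866 CPM. Endothelial cells also make Fabp4; 8 of their markers summed to 52.4 to 57.0 CPM at day 4 and 37.8 to 89.2 CPM at day 14, and 3 of 9 (Tek, Emcn and Cldn5) were called higher. Their part in the Fabp4 values was not tested.

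The ratio of the 2 fatty acid binding proteins was lower in every day 14 library than in any day 4 library; it was not tested. The Fabp5 count was 9.05, 8.37, 9.89 and 8.69 times that of Fabp4 in the 4 libraries of day 4. At day 14 it was 3.07, 3.95, 3.30, 3.14 and 4.07 times as high. Fabp5 had the higher count in all 9 libraries. Of the rest of the family and of the retinoid binding relatives, 11 genes were listed, 7 were in the table and 5 were tested, of which 2 fell and 0 rose. Fabp7, the brain type, fell from 2.71 ± 0.553 to 0.822 ± 0.315 CPM (adjusted p = 0.000751). Crabp1, a retinoic acid binding protein measured in 8 libraries, fell from 7.33 ± 3.81 to 1.24 ± 0.737 CPM (n = 4 and 4, adjusted p = 0.00158). It was highest in day 4 replicate 2 (12.8 CPM), the library with the highest fibroblast marker sum (20474 CPM). The part of fibroblast RNA in the Crabp1 values was not tested. Crabp2, also low, was at 1.14 ± 0.745 and 0.535 ± 0.15 CPM (adjusted p = 0.103), and passed without day 4 replicate 4 (adjusted p = 0.019). That library held the lowest Crabp2 of day 4 (0.360 CPM), so leaving it out was bound to enlarge the difference. The median log2 fold change of the 5 was -1.05.

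PPAR receptors are lipid-sensing transcription factors, and Fabp4 and Plin2 are known targets. Of 14 receptors and targets tested, 2 rose and 4 fell, with a median log2 fold change of -0.23. Pparg rose from 17.9 ± 2.52 to 35.0 ± 6.28 CPM, a log2 fold change of 0.96 ± 0.15 (adjusted p = 0.000426, edgeR quasi-likelihood). Fabp4 did not pass and Plin2 fell. This list does not hold every target. Lpl and Cd36, counted in the cholesterol list, rose by 1.27 and 0.63 on the log2 scale, and the Cd36 call depended on single libraries as given above. The part of Pparg in any of these values was not tested. Angptl4, a secreted inhibitor of lipoprotein lipase, fell from 42.1 ± 9.68 to 15.6 ± 2.18 CPM (adjusted p = 3.25e-05). Tgfbi, a matrix protein and the most abundant of the list, fell from 1507 ± 147 to 998 ± 172 CPM (adjusted p = 0.00351). The thiolase gene Acaa2 and the carnitine carrier gene Slc25a20, the latter from 8 libraries, fell by 0.30 and 0.54 (adjusted p = 0.00628 and 0.00537). Pdk4, a kinase that restrains pyruvate use, rose from 1.23 ± 0.364 to 2.09 ± 0.527 CPM (adjusted p = 0.045), a call lost without day 4 replicates 3 or 4 or day 14 replicates 1, 2, 4 or 5 (adjusted p from 0.0622 to 0.139). Leaving out 1 library gave between 4 and 8 genes called lower in this list.

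Genes of lipid-associated macrophages, a TREM2-dependent state described in fat tissue and plaques, also went both ways. Of 17 tested beside the 7 members, 2 rose and 6 fell, with a median log2 fold change of -0.19. Trem2, the lipid-sensing receptor gene, fell from 216 ± 18.5 to 134 ± 7.85 CPM, a log2 fold change of -0.69 ± 0.08 (adjusted p = 8.52e-05). The lysosomal protease gene Ctsl fell from 2096 ± 230 to 938 ± 86.6 CPM (adjusted p = 8.21e-06). Ctsb, the most abundant of the list, fell from 9944 ± 612 to 8082 ± 521 CPM (adjusted p = 0.0211, and 0.0611 without day 4 replicate 3). Itgax, the integrin CD11c of macrophages and dendritic cells, rose from 102 ± 10.5 to 198 ± 12.9 CPM (adjusted p = 1.49e-05). The elastase gene Mmp12 rose from 237 ± 95.7 to 377 ± 84.2 CPM (adjusted p = 0.0442), which was lost in 7 of the 9 fits with 1 library left out, those other than without day 4 replicate 1 or day 14 replicate 3 (adjusted p from 0.0547 to 0.128). Of 8 dendritic cell markers tested, 6 rose, and 7 of them summed to 133 to 201 CPM at day 4 and 283 to 362 CPM at day 14; their part in the rise of Itgax was not tested.

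**Figure D4:**
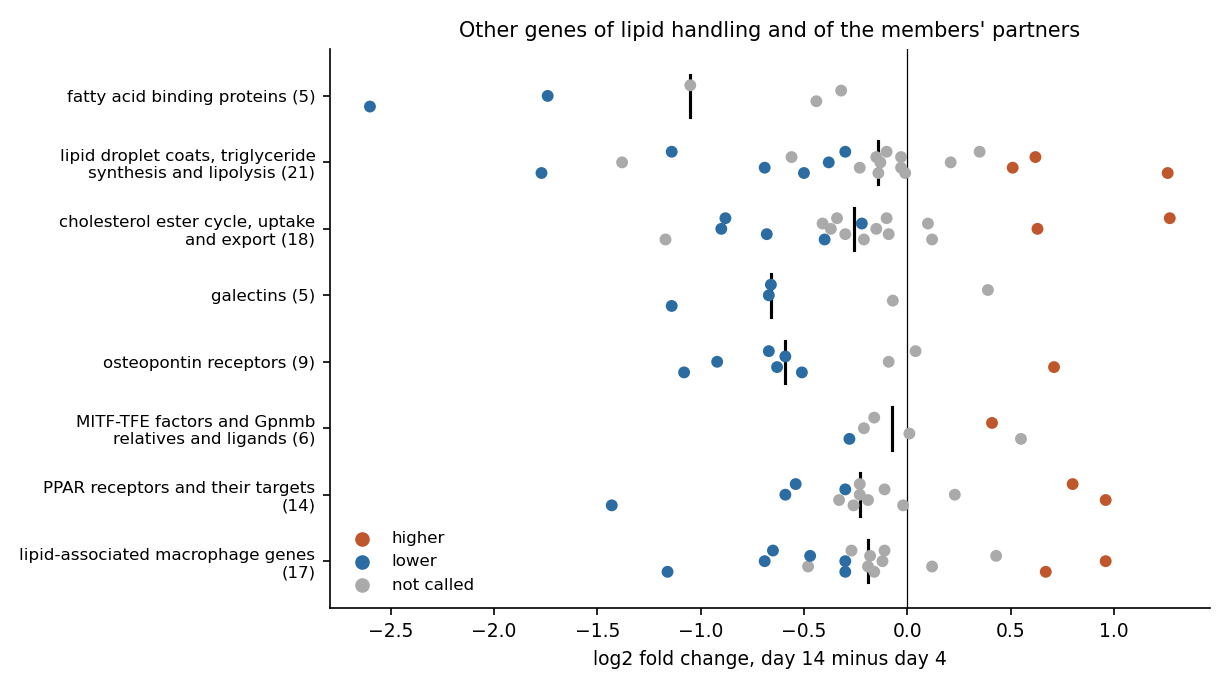
Log2 fold change (day 14 minus day 4) of the tested genes of 8 lists, the 7 members left out, with the number tested in brackets. Points are genes, coloured by their call (adjusted p under 0.05), and the black bar is the list's median, which is -0.66 for galectins, -0.59 for osteopontin receptors and -0.07 for the MITF-TFE list.

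Over the 8 lists, 95 distinct genes were tested, of which 11 were called higher and 33 lower, 46.3% in all. Over all genes tested, 31.1% were called, 15.9% higher and 15.2% lower. The lists were chosen with earlier results of these data known. Day 14 brought more calls in the lower direction in every list except the MITF-TFE list, where 1 gene was called each way. In the 6 shallower libraries the calls were 6 higher and 22 lower. Of the named list genes, 11 lost their call there, namely Acaa2, Acsl3, Cd36, Ctsb, Mmp12, Npc2, Pdk4, Scarb1, Sdc4, Tfec and Tgfbi (adjusted p from 0.0719 to 0.490).

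Per kilobase of transcript, Spp1 was the most abundant member at day 4 and Lgals3 at day 14. Lengths were those of the longest principal transcript in GENCODE M21. At day 4, Spp1 was at 1865 ± 666, Lgals3 at 953 ± 117 and Plin2 at 711 ± 97.4 CPM per kilobase. Spp1 and Lgals3 did not overlap there, with 1410 to 2855 against 872 to 1126 CPM per kilobase, nor did Lgals3 and Plin2. At day 14, Lgals3 was at 913 ± 104 CPM per kilobase and Plin2 at 498 ± 51.1, without overlap. Spp1, at 454 ± 213 CPM per kilobase, then overlapped with Plin2 and, through replicate 3 at 826, with Lgals3. Fabp5 lay above Gpnmb without overlap at day 4, at 221 ± 18.4 against 103 ± 21.2 CPM per kilobase, while at day 14 they were at 103 ± 11.2 and 82.5 ± 9.27 and overlapped. Soat1 (44.9 ± 5.72 and 37.7 ± 5.52) and Fabp4 (27.1 ± 3.41 and 32.6 ± 5.34) were the lowest on both days and overlapped at day 14 only.

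Together the 7 genes made up 0.538% to 0.866% of scaled counts in the day 4 libraries and 0.346% to 0.386% in the day 14 libraries. Spp1, at 2125 to 4302 CPM, was the largest part of this sum in each day 4 library. As 4 of the 7 genes did not pass the test, the sum does not speak for each gene. The spread of the 7 genes within a day had a pattern. At day 4, replicate 1 was the highest library for 5 of the 7 genes (Gpnmb, Spp1, Lgals3, Plin2 and Soat1), and replicate 4 was the lowest for 5 (Gpnmb, Spp1, Fabp5, Plin2 and Soat1). Among the day 14 libraries, replicate 3 was the lowest for 5 (Gpnmb, Lgals3, Fabp5, Plin2 and Soat1) and the highest for Spp1. Replicate 4 was the highest for Gpnmb, Lgals3 and Soat1 and the lowest for Spp1. The library highest in Spp1 was thus also the highest for 4 other members at day 4 and the lowest for 5 at day 14, which is a description without a test.

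**Figure D5:**
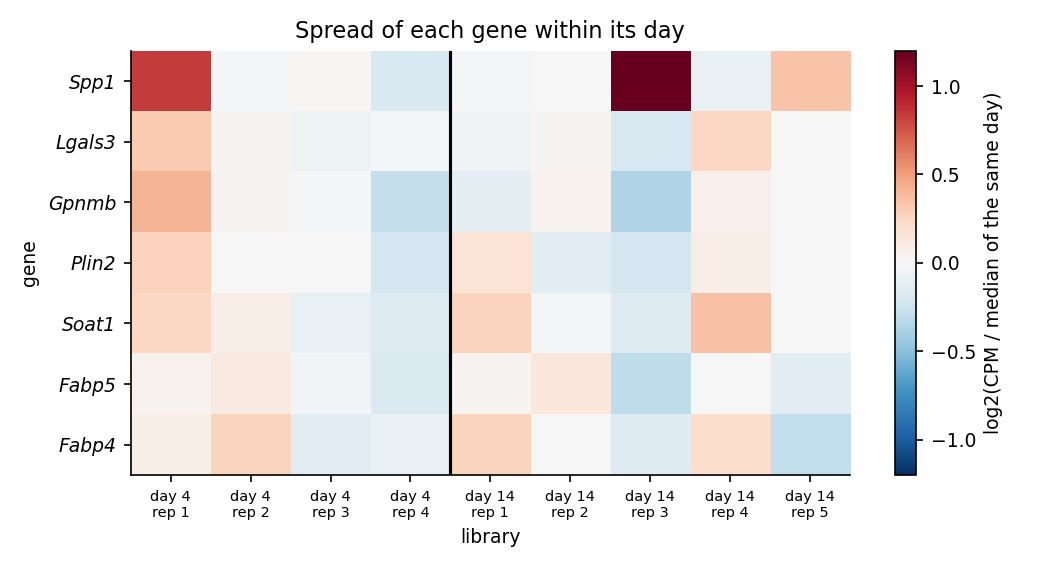
Log2 of each gene's CPM over the median of its own day, for 7 genes (rows) and 9 libraries (columns). The colour is darkest for Spp1 in day 4 replicate 1 (1.79 times the day's median) and day 14 replicate 3 (2.40 times). The 6 other genes lie above their median in the first of these libraries and below it in the second.

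The genes most alike in pattern were found by the Pearson correlation of log2 CPM over the 9 libraries, among 7573 genes with a mean of at least 10 CPM. The correlation includes the day difference and any shared library effect, and is given as a description. For Spp1 they were Agpat9, Dock5 and Icmt (r = 0.99 each). Agpat9, the acyltransferase that leads them, went from 42.7 to 12.6 CPM. Fabp5 was most like Sumf1 (r = 0.99), Camk2d and Ctsl (r = 0.98 each), and Plin2 was most like Tceb3, P4ha1 and Cd93 (r = 0.97 each). For Soat1 they were Psmd14, Slc6a6 (r = 0.99 each) and Emp1 (r = 0.98). Lgals3 was most like Atp6v1b2 (r = 0.98), a subunit of the lysosomal proton pump, followed by Hdgf and Rpl7l1 (r = 0.96 each). Gpnmb had Chchd4 (r = 0.96), Tatdn2 (r = 0.93) and Srp19 (r = 0.91), and Fabp4 had Nipbl, Elf2 (r = 0.98 each) and Zfp326 (r = 0.97). None of the 7 genes was among the 3 most like another.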

How the data were processed

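RNA was sequenced from macrophages sorted from mouse skin wounds. Per the labels' protocols, total RNA was extracted with Trizol and libraries were made with the Illumina TruSeq RNA kit v2, which does not mark strand, so overlapping antisense genes share reads. The submitters' processing notes name the build mm10 and the tools HISAT2 2.1.0, CASAVA 1.8, Partek 6.6, SAMtools 1.4 and DESeq2, without roles; the annotation and filters are not given in the sources used here. The authors deposited estimated counts per gene symbol, not normalized (a mean of 17.2% of values per library are not whole). They were rounded here.

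Genes were placed with RefSeq GRCm38.p6 (17103 of 18303 by symbol, 1097 by an older name, 103 not). The 1608 genes beyond the end of day 14 replicate 5 or without position were left out of the fit, and list genes among them were taken from the same test over all genes in the 8 other libraries. The test was edgeR 4.0.16 (TMM, filterByExpr, robust glmQLFit, glmQLFTest; two-sided), run in R 4.3.3. P-values were adjusted by Benjamini and Hochberg's method across the genes in the fit and called under 0.05. Standard errors were derived from the F statistic, and CPM were computed from the genes in the fit with TMM-scaled library sizes. On simulated data with 12192 genes, the test recovered 63 of 67 genes changed 2-fold and 42 of 67 changed 1.5-fold, with 8 false calls. The simulation drew each gene independently and changed far fewer genes than were called in the data. These rates therefore need not hold for the data. All same-day pairs of libraries differed by more than sampling noise, with chi-square values of 11.1 to 75.6 per degree of freedom.

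The members and lists were chosen with earlier results of these data known. Named genes are the members and, in each list, the 3 with the lowest p, the most abundant one and all called genes where 5 or fewer passed in 1 direction, plus the 3 genes most like each member. Plin1, Plin3, Mitf, Soat2, Adipoq, S100a9, Retnlg, Lgals7, Mlana, Sox10, Krt17, Trp63, Lyz2, Ptprc, Itgam and Emr1 were named after their values were seen. Alternatives were scaling by total count, RLE or the upper quartile, the DESeq2 1.42.0 Wald test and limma-voom (limma 3.58.1). Others were 2 other filters, non-robust dispersion, all genes with 9 libraries, depth subsets and leaving out each library. Leaving out day 4 replicate 1 and day 14 replicate 3 together was added after the data were seen.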

Additional observations from a re-analysis of the deposited data

Results flagged for a closer look

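Among 88 groups of 4 or 5 libraries examined, for the 7 members and the named list genes, 5 held 1 library that stood apart from the rest by Dixon's criterion, and chance alone marks about 1 in 20 groups. Spp1 was at 4302 CPM in day 4 replicate 1, against 2125 to 2425 CPM in the other day 4 libraries. It was at 1245 CPM in day 14 replicate 3, against 487 to 661 CPM in the others of that day. Mmp12 was at 379 CPM in day 4 replicate 1 against 176 to 202 CPM, and at 526 CPM in day 14 replicate 4 against 322 to 356 CPM. Npc2 was at 1076 CPM in day 4 replicate 1 against 1019 to 1027 CPM.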

How the results depend on the processing

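Spp1 and Fabp5 were called lower in all 21 alternatives tried, with log2 fold changes from -2.37 to -1.76 and from -1.23 to -0.95. The 21 include the fit without day 4 replicate 1 and day 14 replicate 3, chosen after the data were seen. Those libraries were left out partly for their Spp1 values, so that fit is no support for Spp1. Plin2 was called lower in 20 of 21 (from -0.69 to -0.22, the latter in the 3 deeper libraries). Leaving out 1 library gave 3 to 4 members called lower and 0 higher, and the 3 deeper libraries gave 2 lower and 1 higher, Fabp4. With 1 day 14 library there, its spread is assumed to be that of the day 4 libraries. Over all genes, leaving out 1 library gave 1480 to 2189 higher and 1368 to 2192 lower against 1944 and 1854, and the 6 shallower libraries gave 976 and 986. Upper-quartile scaling gave 2168 higher and 1629 lower. Of list genes, leaving out 1 library gave 7 to 13 higher and 27 to 41 lower, and the 6 shallower libraries gave 6 higher. Leaving out 1 library moved Lgals3 between -0.13 and 0.02 and Cd44 between -0.20 and 0.10. Lgals3 changed sign without day 4 replicate 1 (0.02) and, chosen after the data were seen, without that library and day 14 replicate 3 together (0.07). Soat1 changed sign in the 3 deeper libraries (0.04), and Cd44 did there (0.15), without day 4 replicate 1 (0.10) and without both libraries (0.13). The cause was not tested. Of 33 named list genes called, 8 lost the call in a fit without 1 library. None of the 63 member CPM values moved by more than 1 SD with total-count scaling. No paired analysis was possible because the labels give no replicate numbers that the 2 days share.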
